A study of Mus musculus with 26 samples.

Results

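Eukaryotic initiation factor 3 (eIF3) is a large complex of protein subunits that binds the small ribosomal subunit, helps to bring in the initiator tRNA and the mRNA, and keeps the ribosomal subunits apart until a start codon has been found. Its core is an octamer of subunits with PCI or MPN domains, and the other subunits attach to it as peripheral modules. The complex acts in the initiation of most mRNAs in neurons as in other cells, and some of its subunits are encoded by mRNAs that start with a terminal oligopyrimidine (TOP) tract, the class that also encodes the ribosomal proteins and responds to growth signals. The subunits were chosen by gene symbol alone: Eif3a, Eif3b, Eif3c, Eif3d, Eif3e, Eif3f, Eif3g, Eif3h, Eif3k and Eif3l. Of these 10 genes, 9 were found in each of 3 tables, among 8576 transcripts in either transgenic table and 9561 transcripts in the LRRK2 KO table. Eif3h is not analysed here.

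Ribosome footprints and total RNA were sequenced from the caudate putamen of C57BL/6 mice, to ask how LRRK2 genotype bears on translation. The labels give an age of 3 months, and the study's methods a range that starts at 3 months. Mice with a G2019S LRRK2 transgene (GS LRRK2 TG) and mice with the kinase-dead G2019S/D1994A LRRK2 transgene (GS/DA LRRK2 TG) were each set against non-transgenic (non-TG) mice. LRRK2 knock-out (LRRK2 KO) mice were set against wild-type (WT) mice. The labels hold a single non-TG group for both transgenic comparisons, but they do not say which of its libraries each comparison used. The transgenes were under a doxycycline-regulated promoter with the CaMKII-tTA driver, so they were limited to cells in which that driver is active, and doxycycline was withdrawn after weaning. Each library came from tissue pooled from several mice of mixed sex, and the footprinting and RNA-Seq libraries of a pool were made from the same lysate. The labels list 3 footprinting and 3 RNA-Seq libraries for non-TG, 2 and 2 for each transgenic group, and 3 and 2 for WT and for LRRK2 KO. The ventral midbrain libraries are not used here.

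The deposited values are group means of normalized reads in the coding sequence (CDS), and a mean of 2 libraries can be resolved into the whole reads of each. This held for 10 of the 12 columns, in which 96.9% to 99.8% of transcripts were resolved. Each resolved column held 2 libraries, also where the labels list 3, and the labels do not say which library is absent. The study's mapped read counts were not used to tell the libraries apart. The non-TG columns of the GS LRRK2 TG table did not resolve, and for them only the authors' mean is given. Footprinting libraries held 7304015 to 18855044 CDS reads in the transgenic tables and 2885467 to 6075737 in the LRRK2 KO table. RNA-Seq libraries held 8679707 to 14214623 and 3125986 to 10843991 reads. Within a group the deeper library is called library 1, a number that is not the replicate number of the labels. Translation efficiency (TE) is the ratio of footprinting to RNA-Seq. Each table was normalized on its own, so levels were not compared between tables, except for control means in the check of Lrrk2.

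Lrrk2 was examined first as the check of genotype. The LRRK2 KO libraries held 102 and 149.7 normalized Lrrk2 footprints, against 400.3 and 690.1 in WT, and 423 and 270.0 normalized RNA-Seq reads, against 1278 and 733. Every recovered LRRK2 KO library was below every recovered WT library. The GS LRRK2 TG footprinting libraries held 3320.5 and 7052, both above the non-TG mean of 2524. That mean was 1335 in the GS/DA table, although the non-TG means of Eif3a and Eif3c were lower in the GS table, 2238 against 2923 and 4662 against 5889. The unresolved GS control was thus high in Lrrk2 beside these genes. The control libraries of both tables may therefore differ in part, and the check is weaker there. The GS/DA LRRK2 TG footprinting libraries held 7267 and 4766, both above the 1445 and 1224 of non-TG. Lrrk2 RNA-Seq did not separate the transgenic groups, with 404 and 5038 in the libraries labelled GS/DA LRRK2 TG and 5233 and 560.2 in non-TG, and with means of 1882 and 2105 in GS LRRK2 TG and its control. The labels of the transgenic RNA-Seq libraries were therefore not checked by this gene.

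Markers of striatal spiny neurons marked the tissue. Of 11 listed symbols, some of them older symbols of the same gene, 9 were found in each table, and the transcript with most reads among them was Ppp1r1b, which encodes the dopamine-regulated phosphoprotein DARPP-32. Their RNA-Seq means summed to 104004 in non-TG and 96161 in GS LRRK2 TG, to 113430 and 98656 in the GS/DA table, and to 44276 in WT and 46532 in LRRK2 KO. The cortical neuron markers, led by the glutamate transporter Slc17a7, summed to 1851 and 1071, 1440 and 3219, and 3604 and 3008 in the same order, with 3, 3 and 5 of 5 found.

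Per kilobase of CDS, the eIF3 subunits were among the more abundant transcripts. The median footprint density of the 9 subunits was 1474 normalized reads per kb in non-TG of the GS/DA table, where the median of all transcripts was 478, and 397 in WT, where it was 111. In every group and library the median of the subunits lay between the 77.9 and 84.5 percentile of all transcripts. Eif3k, a small PCI subunit at the edge of the octamer, had the highest footprint density in every library, and Eif3a, the scaffold of the octamer, or Eif3b, an RNA recognition motif subunit outside it, had the lowest. In non-TG of the GS/DA table, Eif3k had 3038 footprints per kb and Eif3b 686, a 4.43-fold range. Footprint densities lay closer together than RNA-Seq densities in the transgenic tables. The SD of the log2 density over the 9 subunits was 0.70 for footprints and 1.08 for RNA-Seq in these non-TG mice, 0.74 and 0.97 in GS/DA LRRK2 TG, and 0.79 and 1.18 in GS LRRK2 TG. In the LRRK2 KO table the SDs were 0.72 and 0.77 in WT and 0.71 and 0.73 in LRRK2 KO. The order there depended on the library. Library 1 had 0.84 for footprints and 0.77 for RNA-Seq in WT, and 0.86 and 0.72 in LRRK2 KO. Library 2 had 0.65 and 0.80 in WT, and 0.60 and 0.80 in LRRK2 KO. Over all transcripts the SD was instead higher for footprints in the means of every group, though not in each library. It was 1.87 against 1.75 in non-TG of the GS/DA table and 1.93 against 1.73 in WT. Complex members are not replicates, and no test was made of these SDs.

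**Figure D1:**
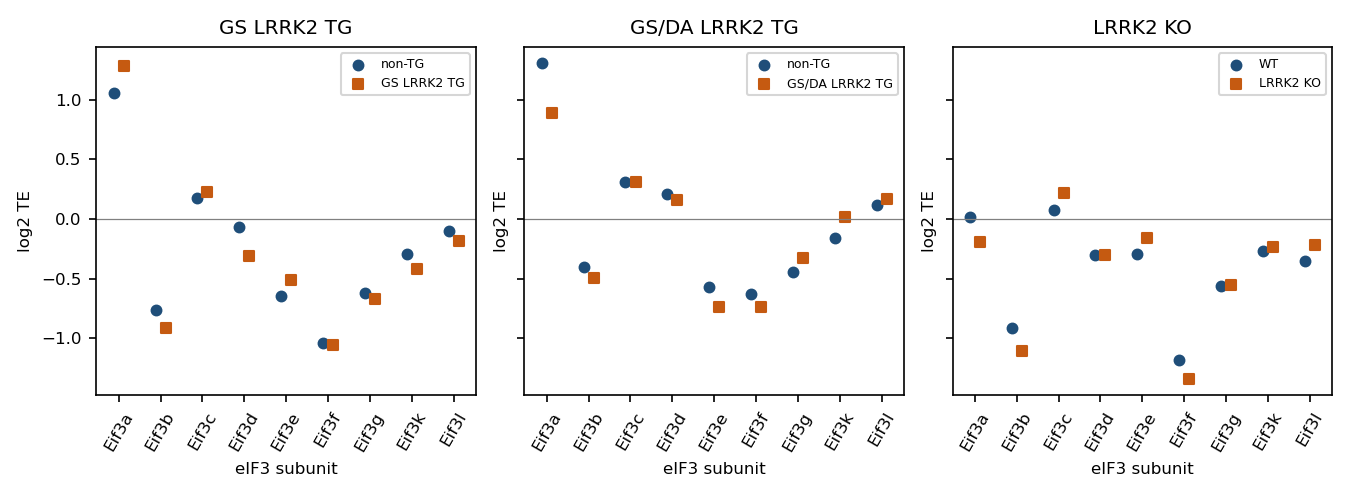
Log2 TE from the authors' group means for the 9 eIF3 subunits in control mice (circles) and LRRK2 mice (squares) of each table, with no error because a group mean is a single value. Eif3a is highest in the transgenic tables (1.31 in non-TG and 0.89 in GS/DA LRRK2 TG) and Eif3f is lowest in every group (-1.19 in WT and -1.34 in LRRK2 KO).

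The scaffold subunits of the octamer were examined first. Eif3a (uc008ibx.1, chr19:60837019-60866596 on the minus strand of mm9, CDS of 4032 bases) held 3104 and 2742 normalized footprints in the non-TG libraries and 3109 and 2708 in GS/DA LRRK2 TG libraries. Its RNA-Seq reads were 1812 and 549 in non-TG and 464 and 2674 in GS/DA LRRK2 TG. The footprints of the groups nearly coincided, while each RNA-Seq group had a high and a low library and the groups overlapped. In the GS LRRK2 TG libraries, Eif3a held 2094 and 2479 footprints, on either side of the non-TG mean of 2238, and 1559 and 319 RNA-Seq reads, also on either side of the mean of 1076. Its footprints in the LRRK2 KO table were 700.1 and 1319 in WT and 736 and 1216 in LRRK2 KO, and its RNA-Seq reads 1089 and 907 in WT and 1324 and 912 in LRRK2 KO. Here the libraries of a group differed more than the groups did.

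From the group means, log2 TE of Eif3a was 1.31 in non-TG and 0.89 in GS/DA LRRK2 TG. The difference of -0.42 had a *z* score of -1.98 against all transcripts, with an RNA-Seq difference of 0.41 (*z* 1.76) and a footprinting difference of -0.01. In limma, fitted to the recovered libraries on the log2 scale, the RNA-Seq difference of Eif3a was 0.16 with an SE of 1.15 (adjusted p = 1.00 by Benjamini-Hochberg), and the TE difference was -0.17 with an SE of 1.29 (adjusted p = 1.00). With the libraries paired as a block the SEs were 0.21 and 0.27 (adjusted p = 1.00 in limma for both). With libraries matched by the difference that both groups share, the RNA-Seq difference was 0.56 in the matched pair that holds the deeper non-TG library and -0.24 in the other, so the direction was not the same in both. Eif3c, the other large PCI subunit and a partner of Eif3a in the core (uc009jrw.1, chr7:133690426-133709880, minus strand), had the most normalized footprints, 6055 and 5723 in non-TG and 6256 and 5803 in GS/DA LRRK2 TG. Its footprints in the LRRK2 KO table were 1677 and 2109 in WT and 1754 and 1990.5 in LRRK2 KO. The groups overlapped in both tables, and the footprinting differences of its means were 0.03 and -0.02, with -0.01 in GS LRRK2 TG.

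The subunits encoded by TOP mRNAs in textbook accounts are Eif3e, Eif3f and Eif3h, of which 2 were found. Eif3e, a PCI subunit of the octamer (uc007vpj.1, chr15:43081586-43114282, minus strand), held 2036 and 1900.2 footprints in non-TG and 1902 and 1841 in GS/DA LRRK2 TG. Its RNA-Seq reads were 4122 and 1726 in non-TG and 1553 and 4675 in GS/DA LRRK2 TG, so its RNA-Seq groups overlapped over their whole range. In the LRRK2 KO table Eif3e held 413 and 632 footprints in WT and 561 and 571 in LRRK2 KO, which lay between the WT libraries. The RefSeq annotation lists 4 pseudogenes of Eif3e, and the reads of the gene are uncertain to the extent that these share them. Eif3f, an MPN subunit (uc009jdc.2, chr7:116077931-116086465, plus strand), held 1837 and 1968 footprints in non-TG and 1743 and 1984 in GS/DA LRRK2 TG, and 1377 and 4511 RNA-Seq reads in non-TG and 4697 and 1516 in GS/DA LRRK2 TG. Its footprints in the LRRK2 KO table were 609 and 504 in WT and 564 and 513 in LRRK2 KO. The Eif3f groups overlapped in each of these comparisons.

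Eif3k and Eif3l are a pair of PCI subunits at the edge of the octamer. Eif3k (uc009gai.1, chr7:29756392-29766883, minus strand) held 2167 and 2111 footprints in non-TG and 2194 and 2543 in GS/DA LRRK2 TG. Both transgenic libraries were above both non-TG libraries, which held for 1 of the 9 subunits here and for 24.3% of all transcripts in either direction. The limma difference was 0.14 with an SE of 0.13 (adjusted p = 1.00 by Benjamini-Hochberg), and with the block the SE was 0.08 (adjusted p = 0.497). Eif3k RNA-Seq reads were 2631 and 3061 in the GS LRRK2 TG libraries, both above the non-TG mean of 2337, as they were on one side for 14.1% of all transcripts. In the LRRK2 KO table Eif3k footprints were 759 and 743 in WT and 776 and 673 in LRRK2 KO, and the groups overlapped. Eif3l (uc007wsk.1, chr15:78905653-78924830, plus strand) held 2326 and 2381 footprints in non-TG and 2293 and 2349.7 in GS/DA LRRK2 TG, and again the groups overlapped.

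Outside the octamer are Eif3b and Eif3g, which carry RNA recognition motifs, and Eif3d, which can bind the mRNA cap. Eif3b (uc009ahr.1, chr5:140895259-140919314, plus strand) held 1215 and 1156 RNA-Seq reads in WT and 1262 and 1369.9 in LRRK2 KO. Both LRRK2 KO libraries were above both WT libraries, the case for 1 of 9 subunits and 14.1% of all transcripts in either direction, and the limma difference was 0.15 with an SE of 0.25 (adjusted p = 1.00 by Benjamini-Hochberg). Eif3g (uc009ojm.1, chr9:20698796-20703044, minus strand) held 524 and 505 footprints in WT and 541 and 537 in LRRK2 KO. These groups also did not overlap, as for 12.6% of all transcripts, and no other subunit was apart in LRRK2 KO footprints, where the limma difference of Eif3g was 0.07 with an SE of 0.20 (adjusted p = 1.00). Eif3d (uc007wom.1, chr15:77789428-77801254, minus strand) held 1484 and 1467 footprints in the GS LRRK2 TG libraries, both below the non-TG mean of 1558. In that comparison Eif3l, with 1800.4 and 1814 against 1851, was also below the mean and Eif3e, with 1569 and 1616 against 1548, above it. These were 3 of 9 subunits, and 40.5% of all transcripts had both GS LRRK2 TG libraries on one side of the mean, a looser criterion because the control libraries are not resolved. In GS/DA LRRK2 TG RNA-Seq, 0 of 9 subunits and 3.44% of all transcripts were apart.

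**Figure D2:**
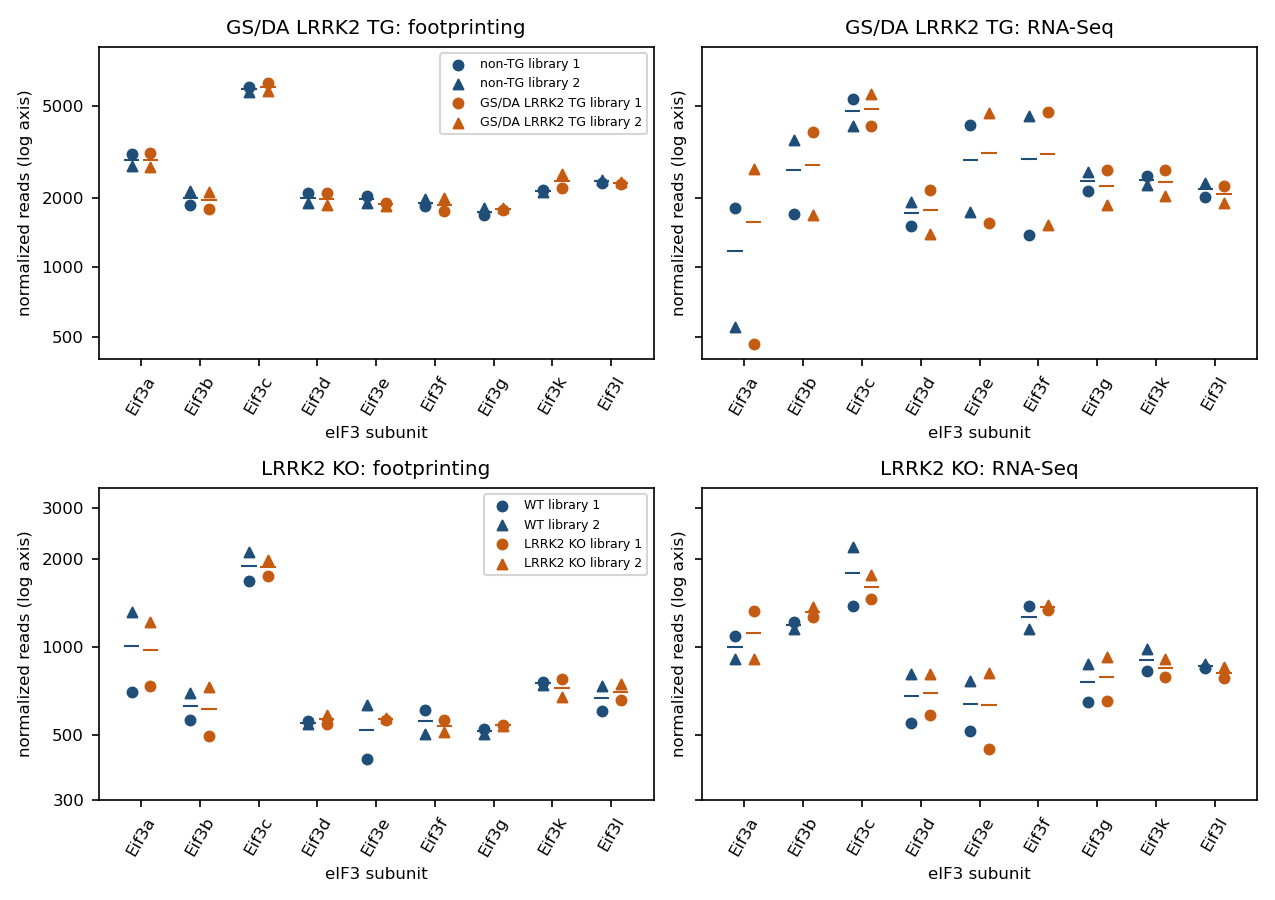
Normalized reads (log axis) of each recovered library for the 9 eIF3 subunits, with circles for library 1, triangles for library 2 and a line at the mean of both. Eif3a footprints lie at 3104 and 2742 in non-TG and 3109 and 2708 in GS/DA LRRK2 TG, and those of Eif3k at 2167 and 2111 against 2194 and 2543. RNA-Seq libraries of non-TG are far apart for Eif3f, at 1377 and 4511, and close for Eif3k and Eif3l, at 1.09-fold and 1.15-fold.

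Across the 9 subunits, the median differences between LRRK2 and control mice were near 0. The median footprinting difference was -0.01 on the log2 scale in GS LRRK2 TG, -0.01 in GS/DA LRRK2 TG and -0.02 in LRRK2 KO, beside 0.00, -0.01 and 0.02 over all transcripts. Single subunits lay between -0.10 and 0.16, between -0.07 and 0.15, and between -0.05 and 0.12. The median RNA-Seq differences were 0.05, 0.05 and 0.04, beside -0.02, 0.06 and 0.01 over all transcripts, with single subunits between -0.20 and 0.28, between -0.07 and 0.41, and between -0.16 and 0.16. The median TE differences were -0.05, -0.05 and 0.01, beside 0.02, -0.05 and 0.02, with single subunits between -0.24 and 0.23, between -0.42 and 0.17, and between -0.21 and 0.14. The sign of these TE medians was not fixed. Without a library they ran from -0.23 to 0.09 in GS LRRK2 TG, from -0.08 to 0.30 in GS/DA LRRK2 TG and from -0.18 to 0.20 in LRRK2 KO, with 0.30 when GS/DA LRRK2 TG RNA-Seq library 1 was left out. With all libraries, after removal of the trend with CDS GC content, they were -0.11, 0.03 and 0.01. The 6 subunits of the octamer had median TE differences of 0.02, -0.06 and 0.09 and the 3 outside it -0.15, -0.05 and 0.00. The tissue is bulk, so fewer cells of a type and less RNA per cell cannot be told apart.

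Few subunits passed a *z* score of 1.5 or -1.5, the cutoff of the study's methods. In GS LRRK2 TG none of the 9 passed for footprinting or TE, where 8.69% and 11.9% of all transcripts did, and 1 passed for RNA-Seq, Eif3k with a difference of 0.28 and *z* of 1.63, where 11.2% did. In GS/DA LRRK2 TG none passed for footprinting (7.53% of all transcripts), and Eif3a passed for RNA-Seq (10.3%) and for TE (11%). In LRRK2 KO none passed for footprinting, RNA-Seq or TE, where 10.1%, 10.9% and 12.3% of all transcripts did. These counts are near what the background shares give for 9 genes. After removal of the trend with CDS GC content, Eif3k had a *z* of 1.47, just below the cutoff, with a difference that was still 0.28, and Eif3a kept 1.73 for RNA-Seq and -1.93 for TE.

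With limma and Benjamini-Hochberg adjustment, 0 subunits and 0% of the 8218 transcripts tested in GS/DA LRRK2 TG passed an adjusted p of 0.05 for footprinting, 0% for RNA-Seq and 0% for TE, and in LRRK2 KO 0 subunits and 0%, 0% and 0% of 9522. At an unadjusted p under 0.05, limma gave 156, 0 and 0 transcripts in GS/DA LRRK2 TG and 16, 7 and 4 in LRRK2 KO, with 0 subunits in each, and with voom weights 153, 0 and 0 and 9, 7 and 1. The subunits' lowest unadjusted p in the limma fit with a pseudocount of 10 and neither weights nor a block was 0.306, for Eif3k footprinting in GS/DA LRRK2 TG. Other settings of limma gave this value as 0.284 with voom weights, 0.290 with a pseudocount of 50 and 0.140 with libraries paired as a block. The SEs of the subunits' footprinting differences were 0.11 to 0.14 in GS/DA LRRK2 TG and 0.20 to 0.44 in LRRK2 KO, whereas those of TE were 0.36 to 1.29 and 0.31 to 0.56. With libraries paired as a block by the difference both groups share, a pairing taken from the data, the SEs of TE were 0.14 to 0.27 and 0.26 to 0.28 and those of footprinting 0.07 to 0.08 in GS/DA LRRK2 TG, and again 0 subunits passed. Fitted to all libraries without the block, limma also missed Lrrk2 footprinting, with a difference of 2.14 in GS/DA LRRK2 TG (adjusted p = 0.675 by Benjamini-Hochberg) and in LRRK2 KO, where the SE was 0.37 (adjusted p = 1.00). With the block, Lrrk2 passed for footprinting in both and for RNA-Seq in LRRK2 KO, but not for TE, where its GS/DA difference was 2.40 (adjusted p = 0.281). Not passing limma is therefore no sign that a subunit was the same in both groups. The GS LRRK2 TG comparison could not be fitted because its control libraries are not resolved. The p-values rest on 2 libraries a group, each a pool of mice, and measure only the spread between these libraries. The comparisons of the kinase-dead and the GS LRRK2 TG mice draw on the same labelled non-TG group. How many libraries they share is not known, so no overlap or correlation between them is given.

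The spread between libraries of a group was widest for RNA-Seq in the transgenic tables, where it went with base composition. Within a group of the transgenic tables, the libraries differed at the subunits by a median of 1.42-fold in RNA-Seq, up to 5.76-fold, and by 1.08-fold in footprinting, up to 1.40-fold. In the LRRK2 KO table the medians were 1.21-fold and 1.14-fold, up to 1.83-fold and 1.88-fold. Eif3e, with a CDS GC content of 41.3%, and Eif3a, with 46.5%, lay at one end, and Eif3f, with 57.5%, and Eif3b, with 55.6%, at the other. In non-TG the log2 ratio of RNA-Seq library 1 to library 2 was 1.72 for Eif3a, 1.26 for Eif3e and -1.71 for Eif3f. In GS/DA LRRK2 TG the order was turned, with -2.53, -1.59 and 1.63. Libraries are numbered by depth within a group, so the sign of these ratios and correlations cannot be compared between groups. Over all transcripts the median ratio was 1.67 below 45% GC and -1.13 above 55% in non-TG, and -2.25 and 1.28 in GS/DA LRRK2 TG. The Spearman correlation with GC content across 8150 and 8042 transcripts was -0.777 and 0.796, and -0.782 across 8019 in GS LRRK2 TG. Footprinting libraries also differed with GC content, with correlations of -0.432 in non-TG and -0.465 in GS/DA LRRK2 TG, 0.302 in GS LRRK2 TG, 0.542 in WT and 0.237 in LRRK2 KO. For RNA-Seq it was -0.0396 in WT and -0.277 in LRRK2 KO. These are descriptions across genes, which share the libraries and are not independent. The GC content of Eif3g, 56.5%, was close to that of Eif3f, yet its ratios were -0.26 and 0.50. The part of base composition in the differences between groups was not tested.

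**Figure D3:**
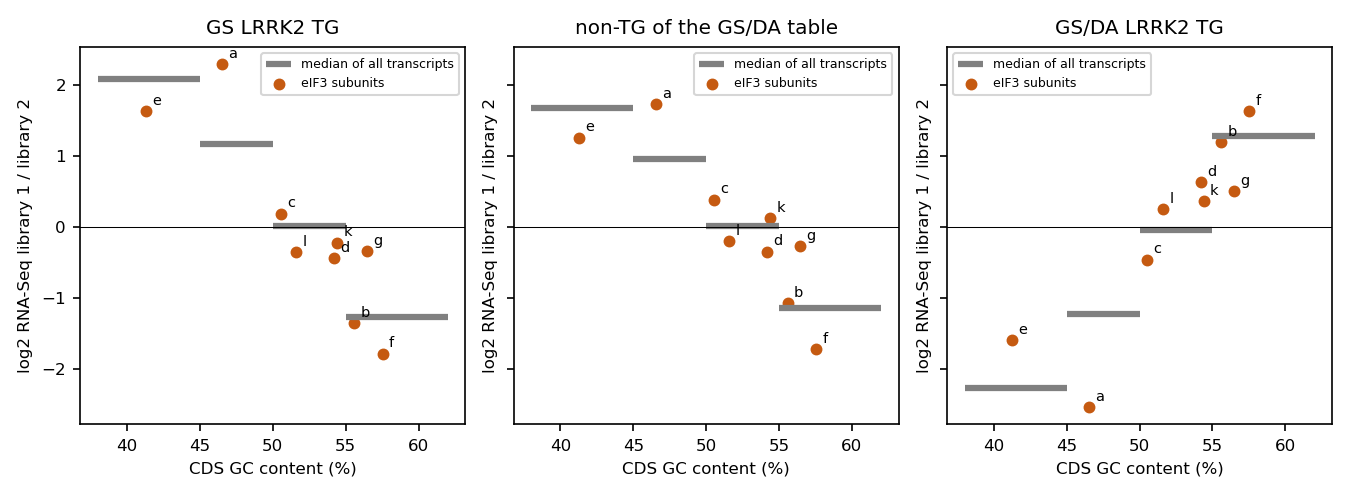
Log2 ratio of RNA-Seq library 1 to library 2 against CDS GC content (%) for the 9 eIF3 subunits (points, by last letter) in the resolved groups of the transgenic tables, with bars at the median of all transcripts in 4 classes of GC content, the outer ones open-ended. Eif3a is at 2.29 in GS LRRK2 TG, 1.72 in non-TG and -2.53 in GS/DA LRRK2 TG. Libraries are numbered by depth within a group, so signs cannot be compared between groups.

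In the transgenic tables, TE of Eif3a and Eif3f followed the RNA-Seq library used. Which footprinting and RNA-Seq library of a group came from the same pool was not determined, so some combinations join different pools. Combinations also reuse the same libraries and are not independent. Over the combinations of a footprinting and an RNA-Seq library, log2 TE of Eif3a ran from 0.60 to 2.50 in non-TG, from 0.02 to 2.74 in GS/DA LRRK2 TG and from 0.43 to 2.96 in GS LRRK2 TG. That of Eif3f ran from -1.30 to 0.52, from -1.43 to 0.39 and from -1.81 to 0.20. Eif3l, near the middle of the GC range, stayed between 0.00 and 0.24 in non-TG and between 0.02 and 0.31 in GS/DA LRRK2 TG. Eif3a was thus above Eif3l in every combination in non-TG, but its range overlapped with that of Eif3l in GS/DA LRRK2 TG, and the range of Eif3f covered that of Eif3l in both groups. In the LRRK2 KO table, where RNA-Seq libraries were closer, Eif3f ran from -1.45 to -0.92 in WT and from -1.44 to -1.25 in LRRK2 KO, below the -0.53 to -0.20 and -0.37 to -0.07 of Eif3l in every combination. Eif3b, at -1.11 to -0.73 in WT, overlapped with Eif3f. TE of Eif3a moved more with the footprinting library in WT. It was -0.64 and -0.37 with footprinting library 1 and 0.28 and 0.54 with library 2.

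The TOP subunits Eif3e and Eif3f had a lower median TE than the 7 others in the means of each group, although single members were mixed, with -0.65 for Eif3e and -0.76 for Eif3b in non-TG of the GS LRRK2 TG table. The median log2 TE of the TOP subunits minus that of the others was -0.74 in non-TG and -0.48 in GS LRRK2 TG, -0.72 and -0.89 in the GS/DA table, and -0.44 and -0.52 in WT and LRRK2 KO. This is a median of 2 genes that move in opposite directions with the RNA-Seq library in the transgenic tables. Combinations of single libraries share libraries there, and some join different pools. In each of the 12 combinations of single libraries there, 1 TOP subunit was above the median of the others, as in non-TG with library 1 of both assays, where Eif3f was at 0.42, Eif3e at -1.02 and the others at a median of 0.17. The first libraries of GS/DA LRRK2 TG gave 0.29 for Eif3e and -1.43 for Eif3f. In the LRRK2 KO table this was so in 4 of 8 combinations. The median of the TOP subunits minus that of the others ran from -0.54 to -0.47 in non-TG, -0.79 to -0.45 in GS/DA LRRK2 TG, -0.48 to -0.11 in GS LRRK2 TG, -0.44 to -0.34 in WT and -0.55 to -0.22 in LRRK2 KO. The 67 ribosomal protein genes, the main TOP class, had lower TE still, with medians of -1.47 in non-TG of the GS LRRK2 TG table, -1.21 in WT and -1.46 in LRRK2 KO. With 2 TOP subunits no test was made. The difference between LRRK2 and control mice in TE, TOP minus others, was 0.14 in GS LRRK2 TG, -0.13 in GS/DA LRRK2 TG and -0.02 in LRRK2 KO. For Eif3e and Eif3f without a library it ran from 0.08 to 0.49, from -0.41 to 0.14 and from -0.15 to 0.07. Its sign was thus not fixed in GS/DA LRRK2 TG and LRRK2 KO. In GS LRRK2 TG, where only transgenic libraries could be left out, it turned only with another choice of TOP subunits. With the TOP subunits read instead from the RefSeq start, described below, the values were -0.09, -0.07 and -0.18. Eif3e, whose start was not read, counted there among the others. After removal of the trend with CDS GC content the values with all libraries for Eif3e and Eif3f were 0.07, 0.01 and -0.08. Ribosomal protein genes had median TE differences of -0.13, -0.07 and -0.27, with 53, 57 and 65 of the 67 below 0, as were 45.2%, 66.5% and 47.0% of all transcripts. In LRRK2 KO their median RNA-Seq difference was 0.26 and their footprinting difference 0.00. In GS/DA LRRK2 TG footprinting 66 of 67 were below 0, with a median of -0.16, as were 52.5% of all transcripts. In LRRK2 KO the RNA-Seq differences of the TOP subunits were 0.11 for Eif3f and -0.02 for Eif3e, and they were not tested against the ribosomal protein genes.

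The start of each transcript was read from RefSeq on GRCm38.p6, as 5 bases before and 15 from the annotated start, for the 8 subunits with an entry. A start was taken as TOP where a C within 3 bases of it was followed by at least 4 pyrimidines, and that C and the pyrimidines after it are in capitals, although in Eif3f and Eif3l there are pyrimidines before it too. Eif3f, Eif3b and Eif3l met this, as did 11.5% of 32851 promoters and 23 of 64 promoters of ribosomal protein genes. They are shown with Eif3a and Eif3k, which did not, Eif3a with the highest TE in the transgenic tables and Eif3k with the highest footprint density. The windows are chr7:108934410-108934429 (plus strand), chr5:140419300-140419319 (plus), chr15:79075218-79075237 (plus), chr19:60790679-60790698 (minus) and chr7:28981874-28981893 (minus), in the order shown. A match is a description of these letters and not a site in use. The annotated entries for Eif3e and Eif3h are not analysed here.
Eif3f: gctctCTCTCTTTCTCggca
Eif3b: gcggtgaCTTCTgggagtcg
Eif3l: cttCTTCCgctctctcccac
Eif3a: gcggcggcgctgccgccgcg
Eif3k: gcgctggtgctgaaagcgcc

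The subunits differed in the authors' predicted folding energy of the 5′UTR, which was -224.71 kcal/mol in Eif3l, the lowest of the 9, -90.6 in Eif3e, -73.7 in Eif3a and -3.9 in Eif3g, while the median of all transcripts was -90.4. Eif3f is listed at 0. Eif3l and Eif3g, at either end of the structured range, had TE differences of -0.09 and -0.05 in GS LRRK2 TG, 0.05 and 0.11 in GS/DA LRRK2 TG and 0.14 and 0.01 in LRRK2 KO.

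Other initiation factors were listed by symbol, and 31 of 35 were found. By *z* score, 6 were up and 1 down in TE in GS LRRK2 TG, 1 up and 4 down in GS/DA LRRK2 TG, and 0 and 0 in LRRK2 KO. Of all transcripts, 687 were up and 335 down of 8576, 313 and 631 of 8576, and 596 and 576 of 9561. With limma 0 passed an adjusted p of 0.05 in either fitted comparison, with lowest TE p-values of 0.652 and 0.367. The highest and lowest TE differences in GS LRRK2 TG were 0.83 for Denr, a reinitiation factor, and 0.67 for Eif2s2, a subunit of eIF2, against -0.28 for Eif2b5, a subunit of its exchange factor, and -0.22 for the helicase Ddx3x. In GS/DA LRRK2 TG they were 0.27 for the cap-binding protein Eif4e and 0.11 for Eif1b, against -0.63 for Eif2s2 and -0.50 for Abce1, a ribosome recycling factor. In LRRK2 KO they were 0.42 for Eif2s1 and 0.40 for Ddx3x, against -0.32 for Eif2b3 and -0.27 for Eif4g2. The 6 factors up in GS LRRK2 TG were Abce1, Denr, Eif2a, Eif2s2, Eif4g2 and Eif5. Their CDS GC contents ran from 39.9% in Eif2s2 to 44.5% in Eif4g2, with 43.4% in Denr. Mcts1, with 36.4%, had a TE difference of -0.11 there. The part of base composition in these differences was not tested. The median TE differences of the 31 factors were 0.14, -0.14 and -0.04 in the order of the tables, and they were not tested against those of the eIF3 subunits.

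Over the 6 groups with TE, the transcripts nearest to the median TE profile of the subunits, among 8535 in all tables, were Btbd9 at a Euclidean distance of 0.129, Tssc1 at 0.144, Tmem199 at 0.146, Th1l at 0.146 and Eftud2 at 0.156. In every group but WT the median of the subunits is the value of Eif3k itself, so its distance of 0.0322 follows from the construction and the transcripts listed are neighbours of Eif3k. Of the other subunits Eif3l was at 0.437, Eif3f at 1.94 and Eif3a at 2.78. The profiles were set by levels that differ between tables, so the distance is a description.

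Markers of other cells also differed in level between groups. Choroid plexus markers, 2 of 4 found and led by Ttr, had summed RNA-Seq of 2204 and 14533 in the non-TG libraries and 1489 and 8049.9 in GS/DA LRRK2 TG libraries, and log2 differences of their summed means of -1.69 in GS LRRK2 TG and -0.81 in GS/DA LRRK2 TG, with -2.14 and -1.46 for footprinting. The footprinting libraries held 1489 and 17613 in non-TG and 5525 and 1440.3 in GS/DA LRRK2 TG. The GS/DA differences rested on 1 non-TG library of each assay, without which the direction turned, from 1489 to a mean of 3483 for footprinting and from 2204 to a mean of 4769.7 for RNA-Seq. In LRRK2 KO their RNA-Seq difference was -0.52. Cortical neuron markers had differences of 1.16 for RNA-Seq and 1.31 for footprinting in GS/DA LRRK2 TG. These differences were -0.79 and -0.24 in GS LRRK2 TG and -0.26 and -0.09 in LRRK2 KO. The GS LRRK2 TG footprinting libraries held 431 and 2302 against a non-TG mean of 1612, so without library 1 the direction turned. The LRRK2 KO and WT libraries overlapped in both assays. Oligodendrocyte markers, 6 of 6 and led by Mbp, differed by 0.12 and 0.07 in RNA-Seq, those of astrocytes by -0.05 and 0.13, of microglia by 0.14 and 0.17 and of red blood cells by 0.22 and -0.22, first in GS LRRK2 TG and then in GS/DA LRRK2 TG. In each of these lists the GS LRRK2 TG libraries lay on either side of the non-TG mean. Red blood cell markers, for example, held 9721 and 49017 against 25253. The GS/DA LRRK2 TG and non-TG libraries overlapped in each list, so these signs depended on the library. In LRRK2 KO the RNA-Seq differences of the 4 lists were -0.07, -0.15, 0.35 and -0.23. For footprinting the 4 lists differed by 0.17, 0.07, 0.08 and -0.09 in GS LRRK2 TG and by 0.01, 0.10, 0.13 and -0.32 in GS/DA LRRK2 TG. In LRRK2 KO they differed by -0.01, -0.07, 0.23 and -0.66. The -0.66 of red blood cells rested on 1 WT library, as WT held 5375 and 1364. Without library 1 of WT the direction turned, from 1364 to a LRRK2 KO mean of 2126. The spiny neuron markers differed by -0.11, -0.32 and 0.05 for footprinting and by -0.11, -0.20 and 0.07 for RNA-Seq in the order of these groups. Their part in the values of the subunits was not tested.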

How the data were processed

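The authors aligned reads to mm9 with TopHat2 2.0.11 and Bowtie2 2.2.2. For each group they deposited a signal, the mean over libraries of CDS reads that the authors had scaled by DESeq 1.20 size factors. The deposited folding energy of the 5′UTR is a score in kcal/mol that the authors took from UCSC. The columns of the authors' own TE, TE differences and *z* scores were not used. Members and lists were chosen with earlier results of these data known. All transcripts were kept for differences and *z* scores from the means, whereas limma tested 8218 in GS/DA LRRK2 TG and 9522 in LRRK2 KO.

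TE and differences were computed from the means, with a pseudocount of 0. For *z* scores, the whole table gave the mean and the SD. Library reads were recovered as the only pair of whole numbers that gives a mean within its printed precision, and after an added shift 0.0314% to 3.24% of values came out whole, against 96.9% to 99.8% before. Recovery and limma were tested on simulated data, and the outcome is not given here. limma 3.58.1 (R 4.3.3) was fitted to log2 of normalized reads plus 10, within each assay for footprinting and RNA-Seq and with an interaction of genotype and assay for TE. Tests were made only within a table. The NCBIM37 annotation gave the CDS length and GC content of 96.4%, 96.4% and 96.3% of transcripts. Named genes were all members, Lrrk2, the 2 highest and 2 lowest TE differences among listed initiation factors and the 5 nearest profiles. The rule was fixed by symbol and rank. Examples singled out beyond it were chosen after their values were seen.

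Labels number the replicates, but the recovered libraries carry no number. The libraries of control and LRRK2 mice were paired by the library difference both share, a hint from the data. Its correlation was 0.731 for footprinting and -0.972 for RNA-Seq in GS/DA LRRK2 TG, and 0.832 and 0.730 in LRRK2 KO. Alternatives were pseudocounts, minimum means of 256 and 512, centring, a GC trend (lowess fraction 0.3), 1 library a group, leaving out libraries, *z* cutoffs, quantile normalization, voom weights, blocks and 1 model over both assays. Python 3.11.15, numpy 2.4.6, pandas 2.3.3, scipy 1.17.1 and statsmodels 0.14.6 were used.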

Additional observations from a re-analysis of the deposited data

How the results depend on the processing

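The median differences of the subunits kept within the spread of libraries in most settings, and no subunit passed limma in any setting run, which is no sign of stability, since without a block or a library left out limma also missed Lrrk2. The exceptions follow, and the cause was not tested. The footprinting median in GS LRRK2 TG, -0.0067, was -0.0101 after centring and -0.0484 after the GC trend, and without a library it ran from -0.0863 (without library 1) to 0.0112 (without library 2), so its sign is not fixed. In LRRK2 KO, TOP minus others was 0.29 and -0.24 with 1 library per group and assay.

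In GS LRRK2 TG only libraries of the transgenic group could be left out. Leave-one-out ranges there were -0.23 to 0.09 for TE, -0.08 to 0.21 for RNA-Seq and 0.0838 to 0.49 for TOP minus others. In GS/DA LRRK2 TG they were -0.0753 to 0.30 for TE, -0.0089 to 0.0324 for footprinting, -0.22 to 0.15 for RNA-Seq and -0.41 to 0.14 for TOP minus others. In LRRK2 KO they were -0.18 to 0.20, -0.07 to 0.12, -0.20 to 0.13 and -0.15 to 0.07 in the same order. Where a group is left with 1 library, limma assumes that it varies like the others. Without a library limma called 0 to 27 transcripts for GS/DA LRRK2 TG footprinting, with 27 and 11 without non-TG footprinting library 1 or 2 and 2 and 16 without GS/DA LRRK2 TG library 1 or 2.

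The *z* counts moved with the cutoff. At a cutoff of 1 they were 1 for footprinting, 2 for RNA-Seq and 1 for TE in GS LRRK2 TG and 3 for TE in GS/DA LRRK2 TG. At 2 they were 0 for RNA-Seq in both and 0 for TE in GS/DA LRRK2 TG. With the cutoff of 1.5, *z* from the median and scaled MAD gave 2 for TE in GS/DA LRRK2 TG.

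The recovered libraries carry no replicate number. With a replicate block by the shared library difference, limma called 19 transcripts for GS/DA LRRK2 TG footprinting, 14 for LRRK2 KO footprinting and 9 for LRRK2 KO RNA-Seq, and with the opposite pairing 5 for GS/DA LRRK2 TG footprinting, with 0 subunits in each and no other count changed. Under the block the lowest adjusted p of a subunit was 0.497, for Eif3k footprinting in GS/DA LRRK2 TG. The 1 model over both assays was chosen after seeing the data and called 0 subunits. For TE, limma missed even the GS/DA difference of Lrrk2 in each of 17 settings, so large differences in TE also went uncalled.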
